A study of Drosophila melanogaster with 7 samples.

Results

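The Turandot (Tot) genes of Drosophila encode small secreted stress peptides. The genes studied here were all those whose symbol was Tot followed by 1 capital letter, which gave 6 genes (TotA, TotB, TotC, TotM, TotX and TotZ) among the 10902 genes of the count table. The annotation lists 8 Turandot genes, and the remaining pair, TotE and TotF, was not analysed here. Turandot peptides are known from the blood of flies exposed to infection, heat or other stress, where the fat body, the fly's counterpart of liver and fat tissue, makes most of them. TotA is known to be switched on through the JAK-STAT pathway, in which Unpaired ligands bind the receptor Domeless, and it also needs the kinase Mekk1 and the IMD pathway factor Relish. TotM is known to be induced separately from TotA after some infections, and Turandot peptides have been reported to shield fly cells from the fly's own antimicrobial peptides.

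RNA came from whole adult midguts of 3 genotypes, 7 days after a move from 18 to 29 °C. Control flies were labelled esgts> w1118 (3 libraries). The second group was labelled esgts> Shn-RNAi (2 libraries), and the third esgts> Shn-RNAi,PucE69/+ (2 libraries, here Shn-RNAi puc, or puc-labelled), which adds 1 mutant copy of puckered (puc), which encodes a JNK phosphatase, to RNA interference against schnurri (shn), a cofactor of BMP signalling. All 3 groups carried the esgts driver, a temperature-sensitive system active in intestinal stem cells and their immediate daughters, and the study title calls the groups control, tumor and severe tumor. No group had the puc allele without the RNAi, so its effect could be seen only on top of the RNAi, and a difference in strain background from the w1118 cross cannot be told apart from the RNAi. Whether the libraries of a group came from separate animals is not labelled, so p-values measure only the spread between these libraries.

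Each library held between 11552527 and 18490676 counts. The targeted gene shn was not lower in either RNAi group (42.4 to 47.4 CPM in control, 54.1 to 69.7 CPM in the 4 RNAi libraries). It was higher in the puc-labelled group than in control (log2 change 0.63, edgeR adjusted p = 0.031). The gene puc stood at 93.5 and 101.3 CPM in the Shn-RNAi-labelled libraries, and 86.5 and 88.3 CPM in the puc-labelled group (log2 change -0.16, edgeR adjusted p = 0.92). The counts thus do not check the labels, and each RNAi library is named by its label. The 12 measured enterocyte and digestive markers had counts in every library, with a summed level of 84700 to 156100 CPM. Because whole midgut was sequenced, more Turandot RNA per cell and more cells that make it cannot be told apart.

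The family was selected on measured values: it was chosen by the rises of TotA and TotC in the Shn-RNAi-labelled libraries against control. The values of that contrast are therefore given below as a description, with no test. TotC was by far the most abundant member. Control held 3, 7 and 0 TotC counts by library, against 3576 and 14765 in the Shn-RNAi-labelled group, and 605 and 341 in the puc-labelled group. In CPM, counts scaled to library size and make-up with TMM, these were 0.215, 0.387 and 0 CPM, 200.4 and 1083 CPM, and 39.3 and 24.1 CPM. The 3 groups did not overlap, with the Shn-RNAi-labelled libraries highest and control lowest. Every Shn-RNAi-labelled library lay above every control library for 22.1% of all genes tested, and every puc-labelled library for 28.5%. Both puc-labelled libraries lay below both labelled Shn-RNAi for 11.9%. The share of genes with this full order was not computed. Pooled over libraries, TotC stood 2599-fold higher in the Shn-RNAi-labelled libraries than in control, with a 95% counting interval of 1413 to 5420.0. The fitted log2 change of 11.45 went to 12.35 without control library 2, 12.2 without library 1 labelled Shn-RNAi and 9.77 without library 2. Counting intervals and floors cover counting error only, not the spread between libraries.

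TotA had 0 counts in all 3 control libraries, 240 and 461 in the Shn-RNAi-labelled libraries, and 11 and 8 in the puc-labelled group. Its levels in the RNAi groups were 13.4 and 33.8 CPM, and 0.715 and 0.565 CPM. As for TotC, the 3 groups did not overlap, beside the shares of all genes given there. The puc-labelled group lay much nearer to control than the other RNAi group did. Against a floor of 3 counts over the control group, it was at least 331-fold higher in the Shn-RNAi-labelled libraries and at least 9.56-fold higher in the puc-labelled group. With 1 library left out these bounds ran from 197 to 503 (control library 2, and library 1 labelled Shn-RNAi) and from 5.68 (without control library 2) to 10.6.

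TotM, which lies apart from the others on chromosome arm 2L, was the member with most counts in control. It had 21, 9 and 5 counts there, 280 and 517 in the Shn-RNAi-labelled libraries, and 140 and 240 in the puc-labelled group. In scaled units these were 1.504, 0.498 and 0.398 CPM, 15.7 and 37.9 CPM, and 9.09 and 17.0 CPM. Every RNAi library lay above every control library (as for 22.1% of all genes tested in the first RNAi group and 28.5% in the second), while the RNAi groups overlapped each other. Pooled over libraries, TotM was 32.3-fold higher in the Shn-RNAi-labelled libraries than in control (95% counting interval 23.0 to 46.7). Its fitted log2 change of 5.06 went to 5.86 without control library 1 and 4.29 without library 2 labelled Shn-RNAi.

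The other 3 members were scarce. TotZ had 0 counts in the 3 control libraries and in both Shn-RNAi puc-labelled libraries, but 32 and 107 counts (1.79 and 7.85 CPM) in the Shn-RNAi-labelled group. TotB had 4 and 20 counts (0.224 and 1.47 CPM) in the Shn-RNAi-labelled libraries and 0 in the other 5. Against 3 counts over the control group, TotZ was at least 65.6-fold and TotB at least 11.3-fold higher in the Shn-RNAi-labelled libraries. Without library 2 of that group these bounds fell to 26.6 and 3.33, and without library 1 they were 117 and 21.8; without control library 2 they were 39.0 and 6.74. TotX had at most 4 counts in any library: 1 in control library 1, 4 in library 1 labelled Shn-RNAi, 1 in library 1 labelled Shn-RNAi puc, and 0 in the rest. At that depth no difference in TotX between groups was detectable.

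**Figure D1:**
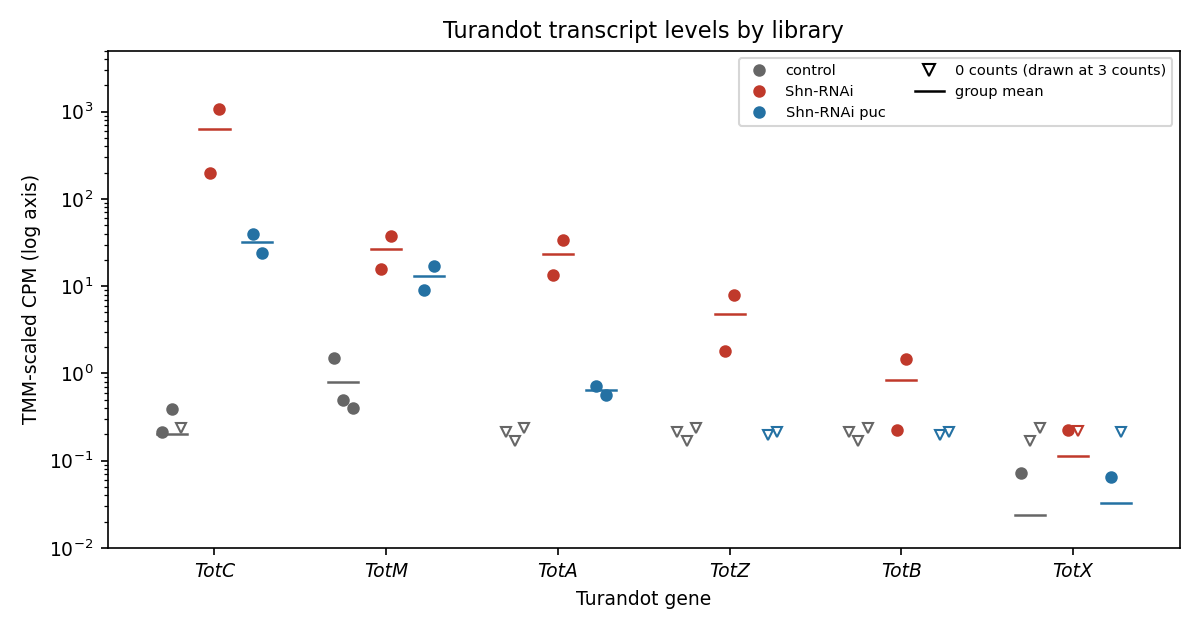
TMM-scaled CPM of the 6 Turandot genes on a log axis, 1 point per library, with lines at group means and open triangles for libraries with 0 counts, drawn at the level of 3 counts. TotC reached 1083 CPM in a library labelled Shn-RNAi, and the RNAi groups overlapped for TotM while TotA, TotC, TotZ and TotB were lower in the Shn-RNAi puc-labelled libraries.

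To compare members with each other, levels were divided by the length of the longest annotated transcript, which ran from 526 to 602 bases over the 6 genes. In the Shn-RNAi-labelled libraries, TotC stood at 1211 ± 1178 CPM per kb (mean ± SD, n = 2), TotM at 48.6 ± 28.5, TotA at 40.8 ± 24.9, TotZ at 8.42 ± 7.48, TotB at 1.61 ± 1.67 and TotX at 0.186 ± 0.263 CPM per kb. TotM and TotA, neighbours in that order, did not differ beyond their spread (28.4 and 68.7 against 23.2 and 58.4 CPM per kb in the same 2 libraries). TotC ranked 263rd and 60th of 10869 genes by CPM per kb in those libraries, and 937th and 1249th in the Shn-RNAi puc-labelled libraries. In the latter the order was TotC (59.8 ± 20.3 CPM per kb), TotM (23.6 ± 10.1) and TotA (1.11 ± 0.182). In control TotM led, at 1.45 ± 1.11 CPM per kb (n = 3), and TotC followed at 0.379 ± 0.366, a gap within 1 SD of TotM.

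The second comparison with control used libraries that did not enter the choice of TotA and TotC, although its 3 control libraries did. Of the 6 members, 4 passed the filter on low counts. All 4 passed it through RNAi libraries, where they were high, and TotZ through the Shn-RNAi-labelled libraries alone. Calls of higher levels than in control were thus favoured beforehand, and nothing is read from their number. TotB and TotX did not pass and were not tested. Of these 4, 3 (TotA, TotC and TotM) were called higher in the Shn-RNAi puc-labelled libraries than in control (edgeR quasi-likelihood test, Benjamini-Hochberg adjusted p under 0.05 over 9076 genes), where 8.76% of all genes tested were called higher. On the log2 scale TotC rose by 7.11 (SE 0.93, edgeR adjusted p = 0.0037), and TotM by 4.03 (SE 0.58, edgeR adjusted p = 0.0055). For TotA, with 19 counts in all, the edgeR adjusted p was 0.037. TotZ had no count in either group.

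The call of TotC was kept in each of the 7 refits that left out 1 library, with a log2 change of 8.002 without control library 2. The log2 change of TotM was 4.81 without control library 1, and its call was lost without library 2 labelled Shn-RNAi puc (adjusted p = 0.075). That of TotA was lost without control library 1 (adjusted p = 0.079), control library 2 (0.066), control library 3 (0.068), or library 1 (0.14) or library 2 (0.16) labelled Shn-RNAi puc, and with limma-voom (0.077). In the first contrast, which chose the members, 6.06% of all genes were called higher, and the 4 members that passed the filter were among them; nothing is read from that count.

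The next comparison set the RNAi groups, whose labels differ by the puc allele, against each other. Any difference in strain background between these groups cannot be told apart from the allele. Both Shn-RNAi puc-labelled libraries lay below both Shn-RNAi-labelled libraries for TotC, TotA, TotZ and TotB, which share chromosome arm 3R. An arrangement of that kind held for 11.9% of the 9076 genes tested. On average TotA was 36.9-fold lower (0.640 ± 0.106 against 23.6 ± 14.4 CPM, SD, n = 2 each) and TotC 20.3-fold lower (31.7 ± 10.8 against 642 ± 624 CPM). TotM, on 2L, was 2.06-fold lower on average (13.0 ± 5.56 against 26.8 ± 15.7 CPM), with overlapping groups. Against 3 counts over the group, TotZ was at least 43.5-fold and TotB at least 7.51-fold lower.

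These values are a description. The Shn-RNAi-labelled libraries that chose the family stand on one side of the comparison, and TotZ passed the filter through them alone. Lower values on the other side were thus favoured beforehand. For that reason nothing is read from the calls: edgeR called 0 of the 4 tested members lower (0.0551% of all genes were called lower, 0.0881% higher and 0.143% in either direction), DESeq2 2 and limma-voom 0, and 3 were lower at an unadjusted p under 0.05, as were 2.95% of all genes.

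The fitted log2 change was -5.18 for TotA (SE 0.58), -4.34 for TotC (SE 0.78) and -1.04 for TotM (SE 0.52). The sizes rest in part on library 2 labelled Shn-RNAi, the one with the highest Turandot counts. Without it the log2 change was -4.38 for TotA, -2.66 for TotC and -0.27 for TotM, and the bounds fell to 17.7-fold for TotZ and 2.21-fold for TotB. Without library 1 labelled Shn-RNAi the log2 change of TotC was -5.09, and the bounds were 77.3-fold and 14.5-fold. Without library 1 of the puc-labelled group, whose 0 counts set the floor, they were 20.8-fold and 3.60-fold, and without its library 2 22.7-fold and 3.91-fold.

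**Figure D2:**
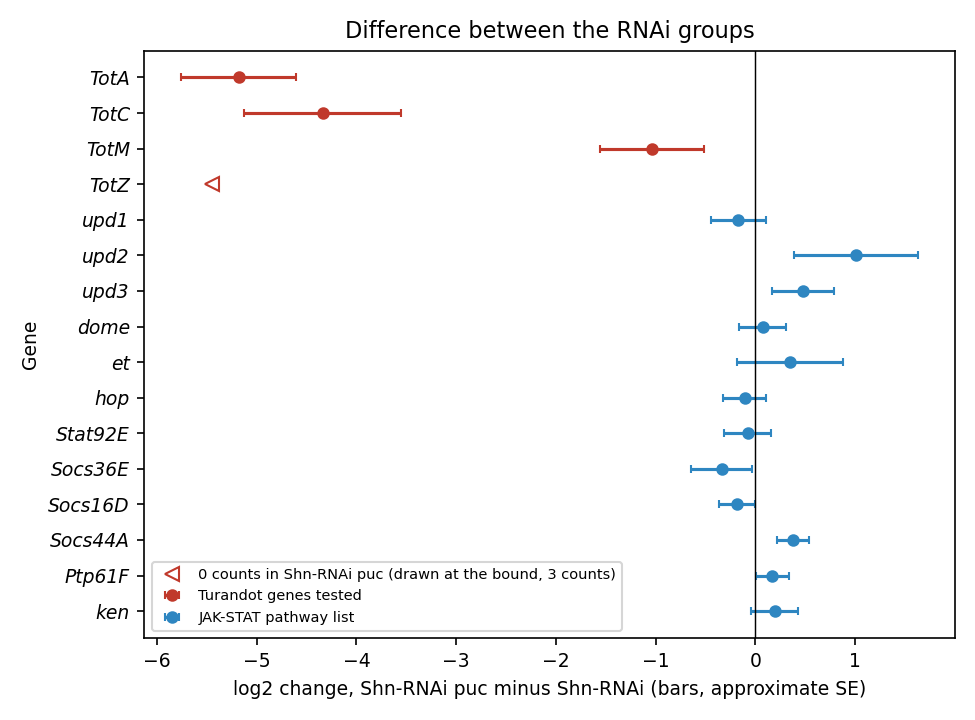
Fitted log2 change between the Shn-RNAi puc-labelled libraries and the Shn-RNAi-labelled group, with bars of 1 approximate SE, for the tested Turandot genes and 12 JAK-STAT pathway genes. TotZ, with 0 counts in the former, is drawn as an open triangle at its bound of 43.5-fold. TotA (-5.18) and TotC (-4.34) lie to the left of the pathway genes, which lie between -0.34 (Socs36E) and 1.01 (upd2). TotA and TotC were chosen by their rise in the Shn-RNAi-labelled libraries, so lower values here were favoured beforehand. No test set them against the pathway genes.

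Summed over the 6 genes, control had 1.79, 0.885 and 0.398 CPM of Turandot transcripts, with 232 and 1165 CPM under the Shn-RNAi label and 49.2 and 41.6 CPM under the Shn-RNAi puc label. As 1 feature, their log2 change was 5.45 between the latter and control and -3.94 between the RNAi groups. The sum follows TotC, and the make-up of the Turandot counts differed between libraries. TotC held 86.5% of the 4136 Turandot counts in library 1 labelled Shn-RNAi (95% Clopper-Pearson interval 85.4 to 87.5%) and 93.0% of 15870 in library 2 (92.6 to 93.4%). In the Shn-RNAi puc-labelled libraries its share was 79.9% of 757 counts (76.9 to 82.7%) and 57.9% of 589 (53.8 to 61.9%). TotM held most of the rest there, with 6.77% and 3.26% in the first group against 18.5% and 40.8% in the second. In control it held 21 of 25, 9 of 16 and 5 of 5 counts.

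Ratios within a library do not depend on how libraries were scaled. There were 0.857 and 0.892 TotA counts for each TotM count in the Shn-RNAi-labelled libraries, and 0.0786 and 0.0333 in the puc-labelled group. The ratio of TotC to TotM counts was 12.8 and 28.6 in the first group, and 4.32 and 1.42 in the second. Both ratios were lower in each library of the second group. These ratios were chosen after the counts were seen, and no test was made of them, since an exact permutation of 2 against 2 libraries cannot give a two-sided p below 0.333. The ratio of TotC to TotA counts, by contrast, was 14.9 and 32.0 against 55.0 and 42.6, with wide intervals in the second group (30.5 to 111 and 21.4 to 99.5).

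**Figure D3:**
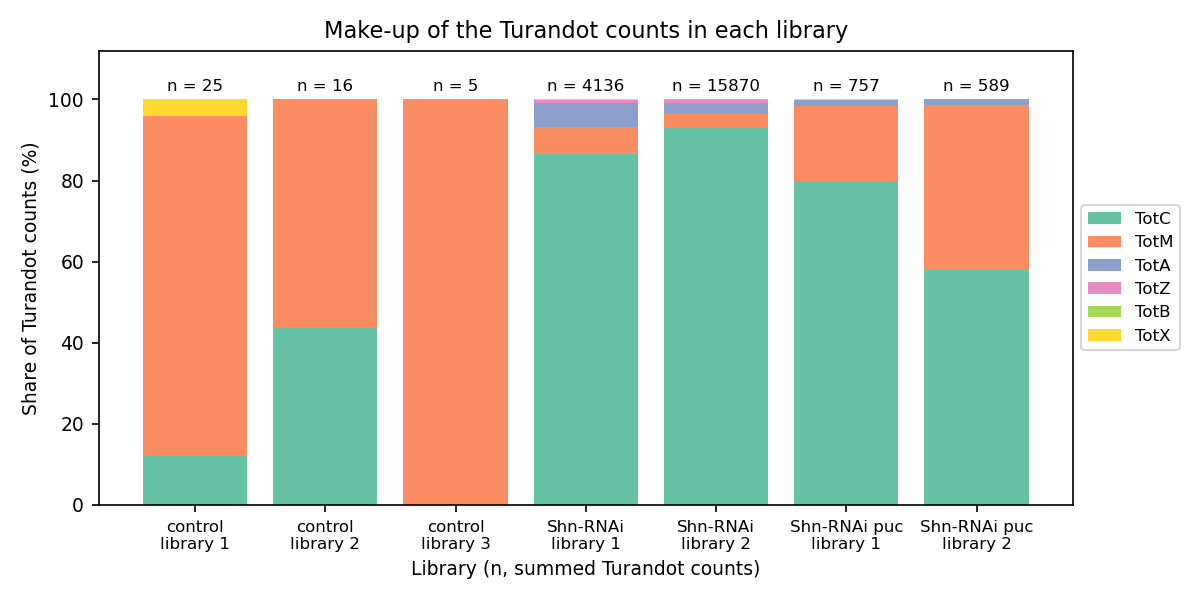
Share of each Turandot gene in the summed Turandot counts of each library (percent), with the summed count above each bar. TotC holds 86.5% and 93.0% in the Shn-RNAi-labelled libraries and 79.9% and 57.9% in the puc-labelled group, where TotM holds most of the rest; the control bars rest on 25, 16 and 5 counts.

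Levels also differed widely between the libraries of the same group. Library 2 labelled Shn-RNAi had 5.41 times the TotC of library 1 (95% counting interval 5.21 to 5.61), 4.38 times the TotZ (2.93 to 6.72), 6.55 times the TotB (2.19 to 26.3), 2.52 times the TotA (2.15 to 2.95) and 2.42 times the TotM (2.09 to 2.81). All 5 of these members were thus higher in library 2, by amounts beyond counting error. Of the 6921 tested genes with at least 5 CPM in that group, 31 (0.448%) were higher in library 2 by at least as much as TotC. For TotA this number was 133 (1.92%), and the median ratio was 0.994. Genes lower in library 2 by as much were not counted. In the Shn-RNAi puc-labelled libraries the members did not move together: library 2 had 0.613 times the TotC of library 1 (0.535 to 0.701) and 1.86 times the TotM (1.51 to 2.31).

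Most heat shock genes were also higher in library 2 than in library 1 labelled Shn-RNAi, while Hsp83 (508.5 and 373.3 CPM in libraries 1 and 2), Hsf and Hsp67Ba were lower. The summed level over 16 heat shock genes was 949 CPM in library 1 labelled Shn-RNAi and 2929 CPM in library 2. The control sums were 675, 1518 and 763 CPM, and those of the puc-labelled group 727 and 1371 CPM. In the puc-labelled group Hsp83 alone stood at 102.7 and 625.9 CPM. Control library 2, with 1518 CPM of heat shock transcripts, had 0.885 CPM of summed Turandot transcripts, between the other control libraries (1.79 and 0.398 CPM). Summed antimicrobial peptide transcripts over 18 genes stood at 101.4 and 355 CPM in libraries 1 and 2 labelled Shn-RNAi, against 130 and 187 CPM in the puc-labelled group and a control range of 4.46 to 53.1 CPM. Most of the sum in the Shn-RNAi-labelled libraries came from the Drosomycin-like genes Drsl3 (83.9 and 238.6 CPM) and Drsl2 (14.5 and 98.6 CPM). Most of the highest control sum came from Drs (40.9 CPM in control library 1). The part of heat shock or antimicrobial peptide genes in the Turandot levels was not tested.

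Since fat body is the known main source of Turandot peptides, its markers are given beside them. The 10 measured fat body markers summed to 628 to 987 CPM in control, 891 and 446 CPM in the Shn-RNAi-labelled libraries, and 649 and 486 CPM in the puc-labelled group. Their sum was lower in library 2 labelled Shn-RNAi, where TotC was highest, than in any other library. Of the 9 tested markers edgeR and limma-voom called 0 in any contrast. At an unadjusted p under 0.05 and by DESeq2, 1 was lower in each contrast with control. Over all genes, 11.9% and 13.7% were lower at that unadjusted p. Most of the sum came from the yolk protein genes Yp1, Yp2 and Yp3, while the larval fat body gene Fbp2 was at 0 in library 2 labelled Shn-RNAi, and fit in library 1. Hemocyte markers (10 measured) summed to 89.1 to 116 CPM in control, 97.2 and 73.1 CPM in the Shn-RNAi-labelled libraries and 91.5 and 114 CPM in the puc-labelled group, with NimC1 and eater at 0 in both Shn-RNAi-labelled libraries. Of 8 tested hemocyte markers, Hml (0.43 to 0.796 CPM in control, 0.784 and 0.44 CPM, and 3.44 and 4.804 CPM) was called higher in the puc-labelled group than in control (log2 change 2.61, edgeR adjusted p = 0.0061; 0.055 and 0.11 without library 1 or 2 of that group). Between the RNAi groups edgeR called 0 hemocyte markers and limma-voom 0, while DESeq2 called 1 higher, and 4 were higher at an unadjusted p under 0.05. Over all genes, DESeq2 called 40 higher in that comparison, and 6.38% had an unadjusted p under 0.05 in either direction. Visceral muscle markers (10 measured) moved with the groups: they summed to 3962 to 4171 CPM in control, 2800 and 2665 CPM and 2560 and 2203 CPM, and 3 and 7 of the 10 were called lower than in control, as were 3.56% and 6.25% of all genes. The part of these cell types in the Turandot levels was not tested.

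The position of the genes was not used to choose them. In the Ensembl annotation of BDGP6, TotA (3R 20871036 to 20871700), TotC (20872988 to 20873580), TotB (20873938 to 20874522) and TotZ (20877736 to 20878363) follow each other on the plus strand with no other protein-coding gene between them. TotX (3R 20904917 to 20905518) lies farther along on the minus strand, wholly inside the gene Grik on the plus strand. No source used here says whether counting used strand, so reads of TotX and Grik could not be told apart. TotM (2L 5329857 to 5330464, plus strand) is on another chromosome arm, and its end lies 5 bases from that of fusl on the minus strand. For all 4 adjacent genes both Shn-RNAi puc-labelled libraries lay below both labelled Shn-RNAi, as given above. Their levels differed greatly among themselves, TotC exceeding TotB, the next gene along, in every library in which either had a count. TotA, TotB, TotC and TotZ are related in sequence, and whether reads were shared among them was not tested.

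**Figure D4:**
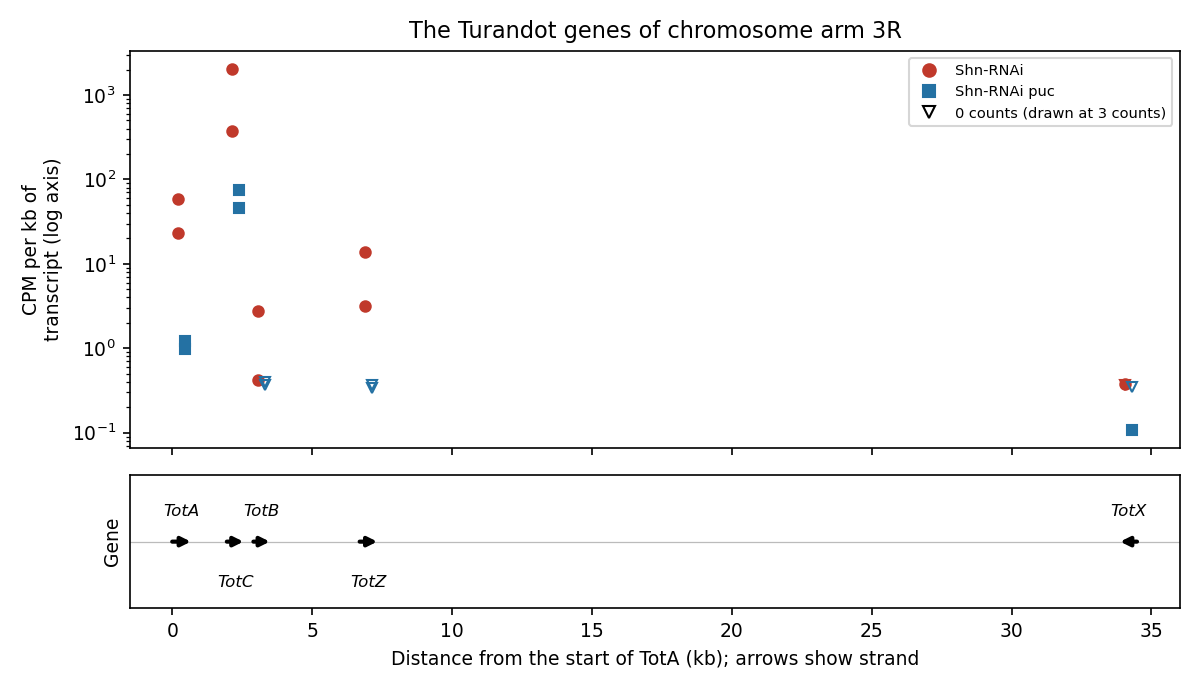
Levels (CPM per kb of transcript, log axis) of the 5 Turandot genes of chromosome arm 3R in the 4 RNAi libraries, above their positions in kb from the start of TotA, with arrows for strand and open triangles for 0 counts. In the run from TotA to TotZ the levels peak at TotC, and each Shn-RNAi puc-labelled library lies below both labelled Shn-RNAi.

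The nearest protein-coding genes that flank the 6 members without overlap were called in no contrast or were too low to test. COX4, the nearest gene in the table to TotE and TotF, which were not analysed, lies 45196 bases away. It was lower in the puc-labelled group than in control (log2 change -0.98, edgeR adjusted p = 0.036). Ktl, which lies 16088 bases beyond TotZ, ranged from 3.73 to 8.62 CPM over the 7 libraries. Its log2 change was 0.27 and 0.64 against control and 0.37 between the RNAi groups (edgeR adjusted p = 0.58, 0.14 and 0.89). The kainate receptor gene KaiR1D, 4804 bases before TotA, had at most 0.166 CPM and was not tested. The gene fusl beside TotM ranged from 2.50 to 5.83 CPM (log2 change 0.37, -0.03 and -0.40, edgeR adjusted p = 0.56, 0.96 and 0.91). CG14022, on the other side of TotM, had at most 0.325 CPM, and CG31191, beyond TotX, ranged from 1.33 to 5.34 CPM and was not called (lowest edgeR adjusted p = 0.41).

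Genes with the profile most like a member over the 7 libraries were found by the root mean square difference of log2 levels, each centred on its mean, among 7176 genes with at least 5 CPM in some group. This is a description, since the libraries that chose the members enter it. For TotC the closest were CG32302 (difference 1.06), the chitin-binding protein gene obst-I (1.44), the cytochrome P450 gene Cyp12d1-d (1.57), the JAK-STAT ligand upd1 (1.85), the lysozyme LysD (1.99) and TotA (1.99), where the median gene differed by 4.64. For TotA they were CG32284 (1.18), the Drosomycin-like gene Drsl2 (1.25), CG43074 (1.34), CG32302 (1.40), CG15605 (1.54) and TotM (1.58), with a median of 3.08. CG32302 had control levels of 8.95, 13.1 and 3.19 CPM, then 2195 and 3071 CPM in the Shn-RNAi-labelled libraries, and 516 and 232 CPM in the puc-labelled group. It thus shared with TotC the order of the groups and, within both RNAi groups, the order of the libraries. Its difference between the RNAi groups was not called by edgeR (log2 change -2.82, adjusted p = 0.21) but was by DESeq2 (adjusted p = 0.012).

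In the JAK-STAT pathway, which acts upstream of TotA in flies, most genes were called higher in each RNAi group than in control, and none was called between the RNAi groups. Of 12 pathway genes, 7 were called higher under the Shn-RNAi label than in control and 8 under the puc label, with 0 lower. Over all genes, 6.06% and 8.76% were called higher, and 3.56% and 6.25% lower. The median log2 change of the pathway genes was 0.85 and 1.06, against 0.03 and 0.02 over all genes. Both calls of Stat92E (edgeR adjusted p = 0.046 and 0.049) were lost with no filter (0.066 and 0.068). They were also lost without any 1 control library (0.067 to 0.15 and 0.073 to 0.16). The first was lost in a fit of only the groups compared (0.064), and the second with RLE scaling (0.055). Of the 7 refits that left out 1 library, 1 kept the first call and 2 the second. The ligand upd1 stood at 13.6 and 21.3 CPM in the Shn-RNAi-labelled libraries and at 14.4 and 16.5 CPM in the puc-labelled group, with 1 count in all of control. The ligand upd3 stood at 26.7 and 35.9 CPM, and 36.1 and 50.8 CPM, against 1.83 to 4.26 CPM in control. The RNAi groups overlapped for upd1, while for upd3 both Shn-RNAi puc-labelled libraries lay above both labelled Shn-RNAi, as was so for 16.1% of all genes. The feedback inhibitor Socs36E was at 367 and 457 CPM, and 266 and 386 CPM, against 27.3 to 47.1 CPM. The log2 level of the receptor gene dome was 1.67 higher in the Shn-RNAi puc-labelled libraries than in control (SE 0.22, edgeR adjusted p = 0.0037; 0.054 without library 2 of that label).

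Between the RNAi groups the log2 change was -0.17 for upd1 (SE 0.28), 0.47 for upd3 (SE 0.31), 0.07 for dome (SE 0.24) and -0.34 for Socs36E (SE 0.31), with edgeR adjusted p from 0.88 to 0.98. No test set the Turandot genes against the pathway genes. Of the 12 pathway genes, 0 were called between the RNAi groups by edgeR, DESeq2 or limma-voom. At an unadjusted p under 0.05 there was 1, beside 6.38% of all genes.

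Of 7 immune and stress genes known to depend on JAK-STAT in flies, 6 were tested. The libraries labelled Shn-RNAi had 4 of them higher, and the puc-labelled group 5 (6.06% and 8.76% of all genes were called higher). Both counts include Socs36E, which was already counted among the pathway genes above. Between the RNAi groups 0 of the 6 were called by edgeR, DESeq2 or limma-voom. At an unadjusted p under 0.05, 2 were higher and 2 lower, beside 6.38% of all genes in either direction. The members did not share 1 profile. Diedel, a secreted immune regulator, was highest in the Shn-RNAi-labelled group: its control levels were 0.0716, 0 and 0 CPM, against 0.841 and 1.54 CPM in the Shn-RNAi-labelled libraries and 0.13 and 0.141 CPM in the puc-labelled group. It was called in the first contrast (edgeR adjusted p = 0.011), though not without library 2 labelled Shn-RNAi (0.076) or without library 1 (0.053) or library 2 (0.054) labelled Shn-RNAi puc. Diedel passed the filter on low counts through the Shn-RNAi-labelled libraries alone, so that call was favoured beforehand. Its difference between the RNAi groups was not called (log2 change -3.04, edgeR adjusted p = 0.32). The thioester protein gene Tep4 stood at 44.5 to 66.8 CPM in control, 126 and 187 CPM, and 196 and 164 CPM. It was called in both contrasts with control (edgeR adjusted p = 0.011 and 0.0058), though the first call was lost without library 2 labelled Shn-RNAi (0.055) and the second without library 1 (0.061) or library 2 (0.056) labelled Shn-RNAi puc. The RNAi groups overlapped for Tep4 and did not for Diedel. Tep2, another thioester protein gene, was 1.58 higher on the log2 scale in the Shn-RNAi-labelled libraries (SE 0.22, edgeR adjusted p = 0.006). In the puc-labelled group it was 0.88 higher (edgeR adjusted p = 0.035), a call lost without control library 1 (0.11) or 3 (0.079), without either library of that group (0.17 and 0.18) and with the length trend taken out (0.067). Listericin, an antibacterial peptide gene, was instead highest in the puc-labelled group (0.553 to 0.645 CPM in control, 0.336 and 0.807 CPM, and 1.75 and 3.18 CPM). It passed the filter on low counts only with the libraries of that group, so a call there was favoured beforehand. It was called there against control (edgeR adjusted p = 0.024), though not without any 1 control library or either library of that group (0.059 to 0.27), and not between the RNAi groups (log2 change 2.13, edgeR adjusted p = 0.31). The virus-induced gene vir-1 was called in the puc-labelled group against control as well (log2 change 0.58, edgeR adjusted p = 0.037), but not without any 1 control library or either library of that group (0.061 to 0.17) or with DESeq2 (0.052).

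Of the 7 genes of the Mekk1 and p38 list, Mekk1 alone was called, higher in both RNAi groups. It stood at 31.0 to 35.4 CPM in control, 48.4 and 50.7 CPM in the Shn-RNAi-labelled libraries, and 64.3 and 57.4 CPM in the puc-labelled group. Its log2 change was 0.59 in the first contrast (edgeR adjusted p = 0.035), a call lost without any 1 of 6 libraries (0.057 to 0.16) and with the length trend taken out (0.23), and 0.89 in the second (edgeR adjusted p = 0.0068; 0.056 without library 1 labelled Shn-RNAi puc). Of 13 IMD pathway genes 1 and 2 were called higher, beside 6.06% and 8.76% of all genes. IKKbeta, a kinase that activates Relish, was called higher in both RNAi groups (edgeR adjusted p = 0.012 and 0.0083). The first call was lost without control library 1 (0.068) or 3 (0.054), and the second without library 2 labelled Shn-RNAi puc (0.086) or control library 1 (0.05). Relish itself (Rel) was called in the Shn-RNAi puc-labelled libraries alone (57.2 to 80.1 CPM in control against 151 and 113 CPM, edgeR adjusted p = 0.038), a call lost without any 1 control library (0.066 to 0.11) or either library of that label (0.24 and 0.12), with the length trend taken out (0.083) and with no filter (0.051). Of 7 tested antimicrobial peptide genes 2 were called higher in both RNAi groups, the Drosomycin-like genes Drsl3 and Drsl2. Drsl2 was, like TotC, highest in library 2 labelled Shn-RNAi (14.5 and 98.6 CPM, against 8.31 and 11.8 CPM in the Shn-RNAi puc-labelled libraries and 0.478 to 1.33 CPM in control). Its call in the Shn-RNAi puc-labelled libraries (edgeR adjusted p = 0.03) was lost without control library 1 (0.087) or 3 (0.083) or without library 1 (0.11) or 2 (0.19) of that label, and with limma-voom (0.11).

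Of the 15 tested heat shock genes, 0 were called in any contrast by edgeR, DESeq2 or limma-voom. At an unadjusted p under 0.05, 3 were higher in the Shn-RNAi-labelled libraries against control, beside 26.8% of all genes in either direction, and 0 in the other contrasts. The median log2 change of the heat shock genes was 1.89 in the first contrast and -1.42 between the RNAi groups, against 0.03 and -0.01 over all genes. Of 10 Toll pathway genes, the ligand spz was called higher in the Shn-RNAi-labelled libraries (1), and spz and the factor Dif in the puc-labelled group (2); the call of Dif was lost without any 1 control library or either library of that label (edgeR adjusted p = 0.059 to 0.14). Of 14 tested genes of the JNK list, 5 and 7 were called higher and 0 lower. For both lists the share of all genes called higher was 6.06% and 8.76%. Over the 8 lists together, 82 genes were tested, and between the RNAi groups 0 of them were called by edgeR, DESeq2 or limma-voom. At an unadjusted p under 0.05, 4 were higher and 4 lower, beside 6.38% of all genes in either direction.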

How the data were processed

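RNA-seq was made from adult midguts, with crop, Malpighian tubules and hindgut removed, in 3 control, 2 Shn-RNAi and 2 Shn-RNAi puc libraries. The authors deposited whole-number counts per gene, with no gene below a total count of 5 over the 7 libraries. Per the submitters' processing notes, Salmon 1.0.0, DESeq2 and BDGP6 were used; their roles, and whether counting used strand, are not given in the sources used here. Columns of the table matched group labels but not single samples, so library numbers are names only.

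Here counts were scaled with TMM and levels given as CPM. Genes passing edgeR's filterByExpr (9076 of 10902) were tested with edgeR 4.0.16 (R 4.3.3), in 1 quasi-likelihood fit over the 3 groups. That left 4 residual degrees of freedom, and the common BCV (the biological variation between libraries) was 21.6%. P-values were adjusted by the Benjamini-Hochberg method over all tested genes and called under 0.05. A standard error was taken as the size of the log2 change over the square root of F and is approximate. Folds against a group with 0 counts used a floor of 3 counts over the group. Symbols were matched to the Ensembl BDGP6 annotation for positions and lengths. The edgeR steps were tested on simulated counts.

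The members and gene lists were chosen with earlier results of these data known. Named were all members, up to 4 called genes per list, the 6 genes most like TotA or TotC and the neighbouring genes. The genes shn, puc, upd2, Stat92E, Yp1, Yp2, Yp3, Fbp2, fit, NimC1, eater and vir-1 fall outside that rule. So do Drs, Hsp83, Hsf and Hsp67Ba. All were named after their values were seen. Alternatives were DESeq2 1.42.0, limma-voom (limma 3.58.1), RLE and upper-quartile scaling, no filter, at least 1 CPM in 2 libraries, fits limited to each pair of groups, removal of a length trend, leaving out each library, the Turandot counts summed to 1 feature, and another prior count than 2 for likeness. A fit with the number in each column's name as a block was added after the data were seen. A search of promoters was not run, as no sequence was used here.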

Additional observations from a re-analysis of the deposited data

How the results depend on the processing

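Under every alternative run, each tested Turandot gene kept its direction. Nothing is read from this, since a reversal was hardly possible where groups did not overlap or 1 of them had 0 counts. Of 176 values for single members, 155 kept their side of the threshold, 11 lost a call and 10 gained one. These include the values of the contrast that chose the family, so the tally is a description. The 3 members called higher in the puc-labelled group than in control became 1 to 3 when 1 library was left out, with 1 without library 2 of that group. The 0 members called lower between the RNAi groups became 1 with the length trend removed, 1 in a fit of only those groups, 2 with DESeq2, and 0 to 2 when 1 library was left out. The cause was not tested, and that comparison uses the libraries that chose the family. With a smaller prior count, 3 of the 6 genes most like TotA and 5 of the 6 most like TotC were shared. Over all genes, edgeR called 8 higher and 5 lower between the RNAi groups, and DESeq2 40 and 53. Against control, the puc-labelled group had 795 genes higher and 567 lower, and 139 and 33 without its library 2, and the 550 and 323 for the Shn-RNAi label fell to 221 and 64 without control library 1. The largest counts under other settings were 1194 and 1012 in a fit of only the groups compared, and 722 and 575 with DESeq2. With 2 libraries in each RNAi group and at most 20 counts of TotB and 4 of TotX in a library, depth limits both genes to description.

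The labels tie no library of one group to one of another, but the columns of the table end in numbers, and a fit with that number as a replicate block was added after the data were seen. Deviations of same-numbered libraries from their group means correlated at -0.133 to 0.204 over 9076 genes, which gives no sign that the numbers pair libraries. With the replicate block 4 and 3 members were called higher than in control, as without it, and 1 was called lower between the RNAi groups. Over all genes the block left 230 higher and 91 lower for the Shn-RNAi label, 309 and 159 for the puc label, and 7 and 4 between them, and 17 calls of named genes outside the family were not made. Between the RNAi groups the correlation was -0.101; with crossed numbers the block called 8 genes higher and 11 lower, 3 of them Turandot genes.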
